A study of Homo sapiens with 4 samples.

Results

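EGFR and its relatives were read in 4 RNA-seq libraries of triple-negative breast cancer cells with and without depletion of QPRT. The members were 10 genes, taken by their Ensembl identifiers from a table of 50653 genes: the receptor genes EGFR and ERBB3, the ligand genes TGFA, HBEGF, AREG, EREG, BTC, EPGN and NRG1, and the feedback inhibitor gene ERRFI1. Of these, 9 had a mean of at least 1 FPKM over the 4 libraries and were tested, and NRG1 did not. FPKM scales the fragments counted for a gene to transcript length and library total, so a comparison between genes depends on the length used.

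BT-20 and MDA-MB-468 (labelled MB-468 in the sample descriptions) are established human breast cancer lines without hormone receptors or ERBB2 amplification, and both are known for extra copies of EGFR. Each line had been transduced with a lentiviral pLKO.1-puro vector that carried a control short hairpin RNA (shRNA) or a shRNA against QPRT, an enzyme of NAD synthesis from tryptophan, and selected with puromycin. RNA of each of the 4 stable populations was sequenced once. A difference within a line therefore has no replicate check, and intervals given with fragment ratios cover counting error only.

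EGFR is a receptor tyrosine kinase that pairs with itself or with ERBB2, ERBB3 or ERBB4 when a ligand binds, and signals through the RAS-MAPK and PI3K pathways. Its ligands are made as membrane-bound precursors and are cut loose by ADAM proteases. ERRFI1, also called MIG6, is made in response to EGFR signalling and binds the kinase domain to switch it off, and several of the ligand genes are themselves switched on by the pathway. BT-20 and MDA-MB-468 belong to the basal-like class of breast cancer, in which EGFR is often abundant.

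What joins the ligands is the EGF-like module that contacts the receptor, a stretch of 36 residues held by 6 cysteines. The coding bases of this module are shown for the 6 EGFR ligands among the members, 108 bases each, with the cysteine codons in capitals. They were read 5′ to 3′ from the GENCODE 29 transcripts (GRCh38), and in each gene the module is split over exons 3 and 4, so that the genomic span given also holds an intron. TGFA lies at chr2:70456458-70465692 on the minus strand, HBEGF at chr5:140335997-140342711 on the minus strand, AREG at chr4:74449172-74450410 on the plus strand, EREG at chr4:74381061-74382675 on the plus strand, BTC at chr4:74750689-74755935 on the minus strand and EPGN at chr4:74312229-74313048 on the plus strand.
TGFA: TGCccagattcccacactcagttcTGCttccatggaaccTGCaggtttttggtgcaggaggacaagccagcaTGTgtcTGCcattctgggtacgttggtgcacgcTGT
HBEGF: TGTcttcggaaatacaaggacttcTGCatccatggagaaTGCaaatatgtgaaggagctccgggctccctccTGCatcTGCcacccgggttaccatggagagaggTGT
AREG: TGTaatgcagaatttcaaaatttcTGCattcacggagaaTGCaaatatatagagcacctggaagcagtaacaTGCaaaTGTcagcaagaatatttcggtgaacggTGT
EREG: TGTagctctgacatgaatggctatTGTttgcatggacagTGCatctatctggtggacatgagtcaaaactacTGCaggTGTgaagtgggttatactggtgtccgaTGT
BTC: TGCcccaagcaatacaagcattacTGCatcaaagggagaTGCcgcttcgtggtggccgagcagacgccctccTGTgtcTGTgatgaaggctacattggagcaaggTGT
EPGN: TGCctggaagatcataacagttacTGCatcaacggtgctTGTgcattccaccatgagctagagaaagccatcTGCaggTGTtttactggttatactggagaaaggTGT
Between these 6 modules the encoded residues were identical at 30.6% to 52.8% of the 36 positions, with a median of 38.9% over the 15 pairs. The closest pairs were TGFA with BTC and HBEGF with AREG, both at 52.8%, and the most distant was AREG with BTC.

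The libraries were of like depth, between 10321996 and 10945948 fragments. QPRT itself was 40.5 FPKM with QPRT shRNA and 248.6 FPKM with control shRNA in BT-20, and 18.3 against 117.3 FPKM in MDA-MB-468, so the labels of the shRNA held. Labels of the lines held too: RB1, known to be lost in MDA-MB-468, was 33.7 and 46.1 FPKM in BT-20 and 1.61 and 1.96 FPKM in MDA-MB-468, and CDKN2A, known to be lost in BT-20, was listed at 0 and at 1.01 FPKM in BT-20 and was 225.4 and 243.7 FPKM in MDA-MB-468. The 5 breast epithelial markers summed to between 5384 and 9590 FPKM and the 4 blood markers to between 0.123 and 0.34 FPKM. PGR was listed at 0 and ESR1 was 1.04 to 5.76 FPKM, while the endothelial gene CDH5 was 96.5 and 134.5 FPKM in BT-20 and 1.24 and 0.912 FPKM in MDA-MB-468. All 16 genes of an intestinal, gastric and plasma cell list, which was chosen because it moved in earlier results of these data, were lower with QPRT shRNA in both lines, with sums of 88.7 and 32.1 FPKM in BT-20 and 198 and 33.3 FPKM in MDA-MB-468. Of the 5 fibroblast genes, with sums of 33.1 and 21.7 FPKM in BT-20 and 20.3 and 15.4 FPKM in MDA-MB-468, COL1A1 alone reached a mean of 1 FPKM, at 32.0 and 21.1 FPKM in BT-20 and 17.5 and 14.7 FPKM in MDA-MB-468. The other 4 were at most 1.32 FPKM, too low to give a direction. The intestinal list and COL1A1 move with the shRNA and so do several members below, and the part of the other cell types in the members' values was not tested. In RNA of whole cultures, fewer cells of a type and less RNA per cell cannot be told apart.

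EGFR was the most abundant member in all 4 libraries, followed each time by ERRFI1, ERBB3 and TGFA. Its level was 179.5 FPKM in BT-20 with control shRNA, 262.3 FPKM in BT-20 with QPRT shRNA, 820.1 and 951.1 FPKM in the MDA-MB-468 libraries, control shRNA first. Both MDA-MB-468 libraries were above both BT-20 libraries. Ranked among all genes of a library, EGFR stood at place 710 and 412 in BT-20 and at place 87 and 75 in MDA-MB-468.

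**Figure D1:**
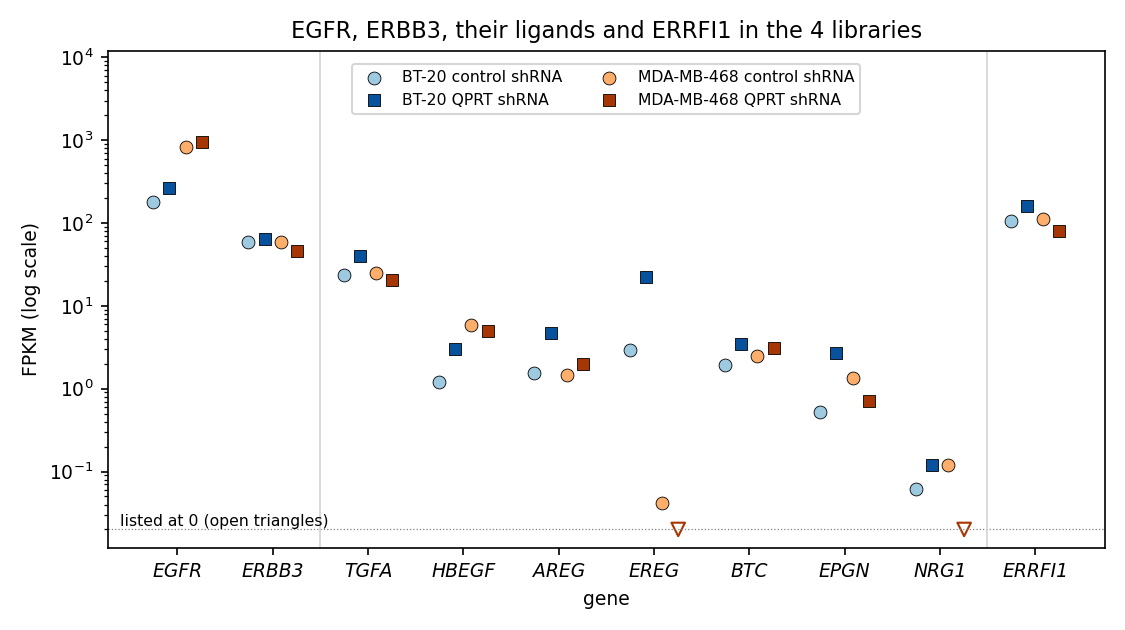
Level of each member in FPKM (log scale) in the 4 libraries, 1 point per library, with receptors on the left, ligands in the middle and ERRFI1 on the right. EGFR lies between 179.5 and 951.1 FPKM, EREG spans the widest range, from 22.3 FPKM in BT-20 with QPRT shRNA to a value listed at 0, and NRG1 stays at or below 0.12 FPKM.

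The EGFR transcript was 4.57 times as abundant in MDA-MB-468 as in BT-20 under control shRNA (95% exact Clopper-Pearson interval 4.43 to 4.71) and 3.63 times under QPRT shRNA (interval 3.54 to 3.72). In the additive limma model over the 4 libraries, with the cell line and the shRNA as terms, the line difference of EGFR was 2.02 ± 0.188 (SE) on the log2(FPKM + 1) scale with a Benjamini-Hochberg adjusted p of 1.87e-25. That model leaves each gene 1 residual degree of freedom, and its standard error comes from the trend over all genes of like abundance and not from the 4 values of the gene. The cell line effect passed the adjusted p of 0.05 for 55.1% of all genes tested, so a call between the lines is common.

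With QPRT shRNA, EGFR was 1.46 times the control level in BT-20 (interval 1.41 to 1.51) and 1.16 times in MDA-MB-468 (interval 1.14 to 1.18). On the log2(FPKM + 1) scale these differences were 0.54 and 0.21, the same direction in both lines and below 2-fold in each. The shRNA effect of EGFR was 0.38 ± 0.188 (SE) in limma, with an adjusted p of 0.99.

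EGFR lies on chromosome 7 at 55019021 to 55211628 on the plus strand (GRCh38, GENCODE 29), and the genes beside it were read to see whether the difference between the lines is shared along the chromosome. Of the 12 other protein-coding genes tested within 2 Mb, 5 were at least 2-fold higher in MDA-MB-468 under both shRNAs. Of all genes tested, 18.3% were at least 2-fold higher in MDA-MB-468 under control shRNA and 17.4% under QPRT shRNA. The share of all genes higher under both is not given here. SEC61G, which encodes a subunit of the protein-conducting channel of the endoplasmic reticulum and lies at -259 kb from EGFR, was 701 and 625.7 FPKM in BT-20 and 5512 and 5311 FPKM in MDA-MB-468, ratios of 7.86 under control shRNA and 8.49 under QPRT shRNA. LANCL2, 153.8 kb after EGFR, was 92.2 and 85.6 FPKM in BT-20 and 761.2 and 763.1 FPKM in MDA-MB-468. The ratios of LANCL2, 8.26 and 8.92, were larger than those of EGFR itself, and VOPP1 at 224.4 kb gave ratios of 4.35 and 5.08.

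Farther out, the zinc finger gene ZNF713 at 675.8 kb gave ratios of 6.46 and 7.22, and from 740.2 kb the ratios were lower. NIPSNAP2 gave 1.85 and 1.76, MRPS17 0.918 and 1.58, PSPH 1.83 and 2.10, CCT6A 1.68 and 1.43, SUMF2 1.01 and 0.943, PHKG1 0.823 and 1.16 and CHCHD2 0.843 and 0.971. NUPR2, at 903.1 kb, broke this order with 0 and 4 fragments in BT-20 and 223 and 158 fragments in MDA-MB-468. None of the 12 neighbours changed 2-fold with QPRT shRNA in either line, where 0.649% to 1.05% of all genes were called in each direction. The median shRNA difference of the neighbours was -0.10 in BT-20, while MDA-MB-468 gave -0.07 on the log2(FPKM + 1) scale, where EGFR had 0.54 and 0.21. DNA copy number was not measured in these libraries, and whether it moves with these ratios was not tested.

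**Figure D2:**
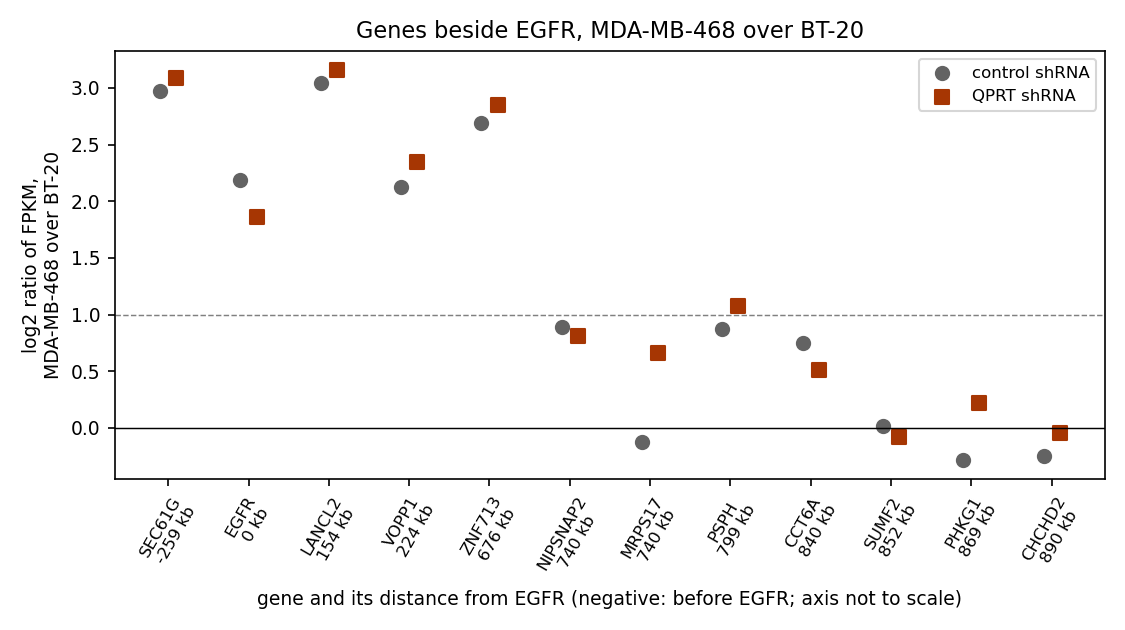
Ratio of FPKM, MDA-MB-468 over BT-20 (log2 scale), for EGFR and 11 neighbouring genes ordered along chromosome 7, with control shRNA as circles and QPRT shRNA as squares. The dashed line marks 2-fold, and NUPR2, at 0 in BT-20 with control shRNA, is left out. SEC61G, EGFR, LANCL2, VOPP1 and ZNF713 lie above 2-fold under both shRNAs, and the genes from NIPSNAP2 on do not.

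By the pattern over the 4 libraries, the gene most like EGFR was PLXNA2, a semaphorin receptor gene on chromosome 1, at 2.92 and 4.73 FPKM in BT-20 and 16.8 and 19.3 FPKM in MDA-MB-468. Its root mean square difference from EGFR, after each gene was centred on the log2(FPKM + 1) scale, was 0.0124. RPL36A (0.0459), the interferon gamma receptor gene IFNGR1 (0.0461), MTUS1 (0.0542) and CCDC18-AS1 (0.0749) came next among the 10422 genes compared, of which 12 were under 0.1. With only 4 libraries a high likeness is common: 571 of these genes had a Pearson correlation above 0.99 with EGFR. RPL36A belongs to a family with many processed copies, and its value is uncertain for that reason.

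ERBB3, the kinase-impaired partner that couples the family to PI3K, differed little. It was 59.3 and 64.4 FPKM in BT-20 and 58.6 and 46.6 FPKM in MDA-MB-468, control shRNA first. The lines were not distinguishable under control shRNA, with a ratio of 0.989 (interval 0.907 to 1.08). With QPRT shRNA the fragment ratio was 1.09 in BT-20, with an interval that reaches below 1 (0.998 to 1.18), and 0.794 in MDA-MB-468 (interval 0.723 to 0.871). EGFR was 3.03 and 4.07 times ERBB3 in BT-20, while MDA-MB-468 gave 14.0 and 20.4 times ERBB3 per transcript length.

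Among the ligands, TGFA had the highest FPKM in every library. The largest changes with QPRT shRNA were in BT-20, where EREG, EPGN and AREG rose at least 2-fold on the log2(FPKM + 1) scale. In that line 3 of the 9 members tested were called higher, against 1.05% of all genes tested, and none was called lower, against 0.649%. EREG and EPGN entered the test only through the BT-20 library with QPRT shRNA, where they are high. Of the 7 members that pass without it, 1 (AREG) was called higher. In MDA-MB-468 no member passed 2-fold in either direction, against 1.03% of all genes higher and 0.866% lower.

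EREG, the gene of epiregulin, an EGFR and ERBB4 ligand, showed the widest range. It was 2.95 FPKM (68 fragments) in BT-20 with control shRNA and 22.3 FPKM (527 fragments) with QPRT shRNA. The MDA-MB-468 libraries had 0.0421 FPKM (1 fragment) with control shRNA, and it was listed at 0 with QPRT shRNA, which allows up to 3 fragments. EREG was thus present in both BT-20 libraries and at the limit of detection in both MDA-MB-468 libraries.

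In BT-20 the EREG fragment ratio, QPRT shRNA over control shRNA, was 7.55 (interval 5.85 to 9.86). Of all genes tested, 99.97% had a smaller log2(FPKM + 1) difference than its 2.56 in that line. That rank is no independent support, since EREG entered the test only through the BT-20 value with QPRT shRNA that makes this difference. No fold is given for MDA-MB-468, where both libraries are at or under the 3 fragments. Between the lines EREG was 70.1 times higher in BT-20 under control shRNA, on 68 against 1 fragments, with an interval from 12.2 to 2808. Under QPRT shRNA, with 527 against 0 fragments, no ratio can be given, and the exact interval starts at 134.7-fold higher in BT-20.

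EREG was the only member past an adjusted p of 0.05 for the shRNA effect in limma, at 1.25 ± 0.295 (SE) with an adjusted p of 0.00711. The background was 90 of 14321 genes, or 0.628%. This call rests on BT-20 alone, since the 2 lines contributed 2.56 and -0.06, and it was lost under 4 of 9 alternative settings, with adjusted p between 1.62e-08 and 1. EREG also entered the test only through the BT-20 library in which it is high, and with no filter on low values its adjusted p was 0.988. Without the correction for multiple tests, EGFR, AREG and EREG had a p under 0.05, as did 4.8% of all genes. The cell line effect of EREG was -3.23 ± 0.295 (SE), MDA-MB-468 over BT-20, with a limma adjusted p of 1.98e-26.

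AREG encodes amphiregulin, a lower-affinity EGFR ligand. It was 1.53 FPKM (16 fragments) in BT-20 with control shRNA and 4.74 FPKM (51 fragments) with QPRT shRNA, and 1.48 FPKM (16 fragments) and 1.97 FPKM (20 fragments) in MDA-MB-468. The BT-20 library with QPRT shRNA stood above the other 3, which were close together. Its fragment ratio was 3.10 in BT-20 (interval 1.74 to 5.83) and 1.33 in MDA-MB-468, with an interval that spans 1 (0.653 to 2.74). In limma the shRNA effect of AREG was 0.72 ± 0.294 (SE) with an adjusted p of 0.656.

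EPGN, the gene of epigen, was near the limit of detection throughout. It was 0.521 FPKM (3 fragments) and 2.71 FPKM (16 fragments) in BT-20 and 1.35 FPKM (8 fragments) and 0.715 FPKM (4 fragments) in MDA-MB-468, control shRNA first. The fragment ratio with QPRT shRNA was 5.19 in BT-20, with a wide interval of 1.49 to 27.8, and 0.530 in MDA-MB-468, with an interval from 0.117 to 1.98 that spans 1. EREG and EPGN passed the mean of 1 FPKM only through the BT-20 library with QPRT shRNA, since the means of the other 3 libraries were 0.998 and 0.861 FPKM. Over the 7 members that pass without that library, 1 (AREG) was called in BT-20.

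TGFA, which encodes transforming growth factor alpha, was 23.4 FPKM (280 fragments) and 39.6 FPKM (487 fragments) in BT-20 and 24.8 FPKM (306 fragments) and 20.8 FPKM (242 fragments) in MDA-MB-468. The lines were close under control shRNA, with a ratio of 1.06 (interval 0.899 to 1.25). With QPRT shRNA the ratio to control was 1.69 in BT-20 (interval 1.46 to 1.97) and 0.839 in MDA-MB-468 (interval 0.706 to 0.996), below 2-fold in both.

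HBEGF, the gene of the heparin-binding ligand, was 1.22 FPKM (18 fragments) and 3.02 FPKM (46 fragments) in BT-20 and 5.90 FPKM (90 fragments) and 5.004 FPKM (72 fragments) in MDA-MB-468. Here the MDA-MB-468 libraries were both above the BT-20 libraries. The limma line effect was 1.11 ± 0.284 (SE) with an adjusted p of 0.000296, where 55.1% of all genes passed. It kept its call under 7 of 8 alternative settings (limma adjusted p 5.98e-05 to 0.105) and lost it with no filter on low values. In BT-20 the fragments were 2.49 times the control with QPRT shRNA (interval 1.42 to 4.56), while the log2(FPKM + 1) difference, which understates low genes, was 0.86 and under the 2-fold call.

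BTC, the gene of betacellulin, differed by less than 2 times between any pair of libraries. It was 1.92 FPKM (35 fragments) and 3.46 FPKM (65 fragments) in BT-20 and 2.50 FPKM (47 fragments) and 3.10 FPKM (55 fragments) in MDA-MB-468. Its fragment ratio with QPRT shRNA was 1.81 in BT-20 (interval 1.18 to 2.81) and 1.24 in MDA-MB-468, where the interval spans 1 (0.825 to 1.87). NRG1, a neuregulin that binds ERBB3 and ERBB4, had 1 and 2 fragments in BT-20 and 2 and 0 fragments in MDA-MB-468, and no fold is given.

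ERRFI1, the feedback inhibitor, was 107.2 FPKM (1698 fragments) and 161 FPKM (2620 fragments) in BT-20 and 112.7 FPKM (1841 fragments) and 79.2 FPKM (1220 fragments) in MDA-MB-468. The 2 control libraries were close to each other, and the 2 QPRT shRNA libraries lay on opposite sides of them. The fragment ratio was 1.502 in BT-20 (interval 1.41 to 1.60) and 0.703 in MDA-MB-468 (interval 0.653 to 0.756). In limma ERRFI1 had an shRNA effect of 0.04 ± 0.198 (SE), adjusted p 1, and a line effect of -0.47 ± 0.198 (SE), adjusted p 0.0338, which lost its call under 4 of 9 alternatives (adjusted p 0.0284 to 0.335).

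**Figure D3:**
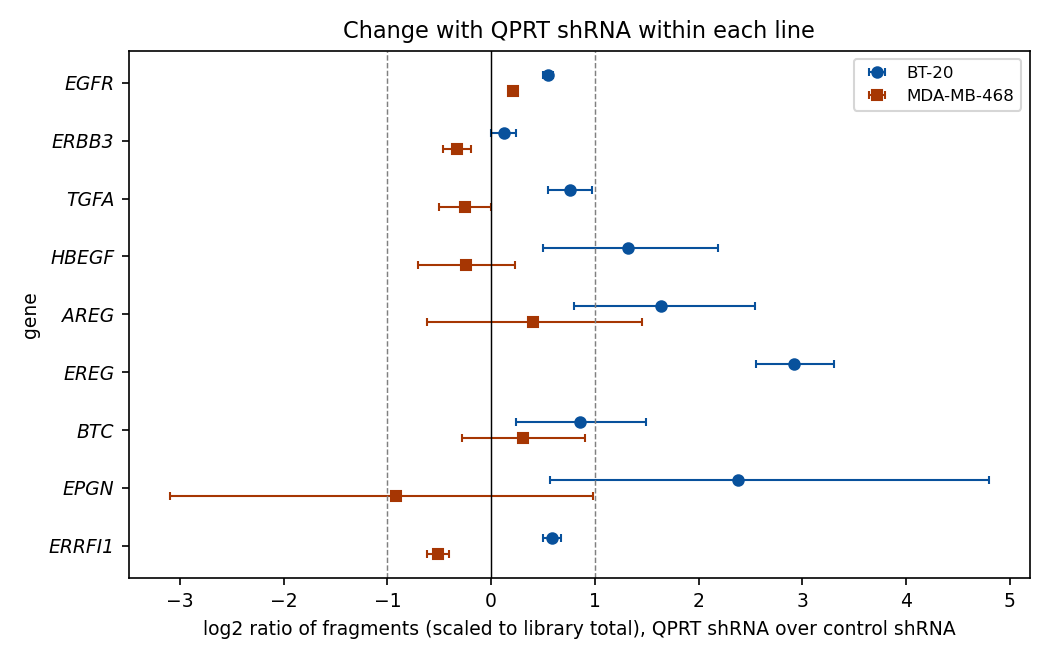
Log2 ratio of fragments scaled to the library total, QPRT shRNA over control shRNA, for each member in BT-20 (circles) and MDA-MB-468 (squares), with exact 95% counting intervals as bars and 2-fold as dashed lines. NRG1 and EREG in MDA-MB-468 are left out because both libraries had at most 3 fragments. All BT-20 points lie right of 0, from 0.12 for ERBB3 to 2.92 for EREG, and 5 of the 8 MDA-MB-468 points lie left of it.

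Side by side, all 9 members tested were higher with QPRT shRNA in BT-20, where 56.4% of all genes were, and 3 of 9 were higher in MDA-MB-468, where 51.5% of all genes were. The median difference of the members was 0.74 in BT-20 (all genes 0.05) and -0.20 in MDA-MB-468 (all genes 0.01) on the log2(FPKM + 1) scale. Without EREG and EPGN, all 7 others were higher in BT-20 with a median of 0.61, and 3 of 7 were higher in MDA-MB-468 with a median of -0.20. Under no scaling tried did the number of members above 0 in BT-20 differ from 9, and scaling to TPM raised the median of all genes there from 0.05 to 0.09.

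Between the lines under control shRNA, EGFR and HBEGF were called higher in MDA-MB-468 and EREG lower, against 18.3% of all genes higher and 13.2% lower. Under QPRT shRNA, EGFR was called higher and EREG, EPGN and ERRFI1 lower, against 17.4% and 13.9%. EREG and EPGN entered the test only through the BT-20 library with QPRT shRNA. Of the 7 members that pass without it, 1 (EGFR) was called higher and 1 (ERRFI1) lower under QPRT shRNA. The members' share in each direction is of the order of the background or rests on 1 to 3 genes. HBEGF was 4.85 times higher in MDA-MB-468 under control shRNA (interval 2.90 to 8.56) and 1.65 times under QPRT shRNA (interval 1.13 to 2.45). ERRFI1 turned from a ratio of 1.05 (interval 0.984 to 1.124) to 0.492 (interval 0.459 to 0.527). TGFA stayed under 2-fold at both, with ratios of 1.06 and 0.525, and AREG gave 0.970 and 0.414 with 16 to 51 fragments a library.

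Summed over the 7 ligand genes, the level was 31.6 FPKM in BT-20 with control shRNA, 75.9 FPKM in BT-20 with QPRT shRNA, 36.2 and 31.6 FPKM in the MDA-MB-468 libraries, control shRNA first. The BT-20 library with QPRT shRNA stood apart and the other 3 were alike. EGFR was 5.69 and 3.46 times the ligand sum in BT-20, while MDA-MB-468 gave 22.7 and 30.1 times, control shRNA first. EGF, which is not a member, is left out of these sums and ratios and of the shares below. It was 0.358 and 0.582 FPKM in BT-20 and 4.29 and 1.66 FPKM in MDA-MB-468, control shRNA first.

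**Figure D4:**
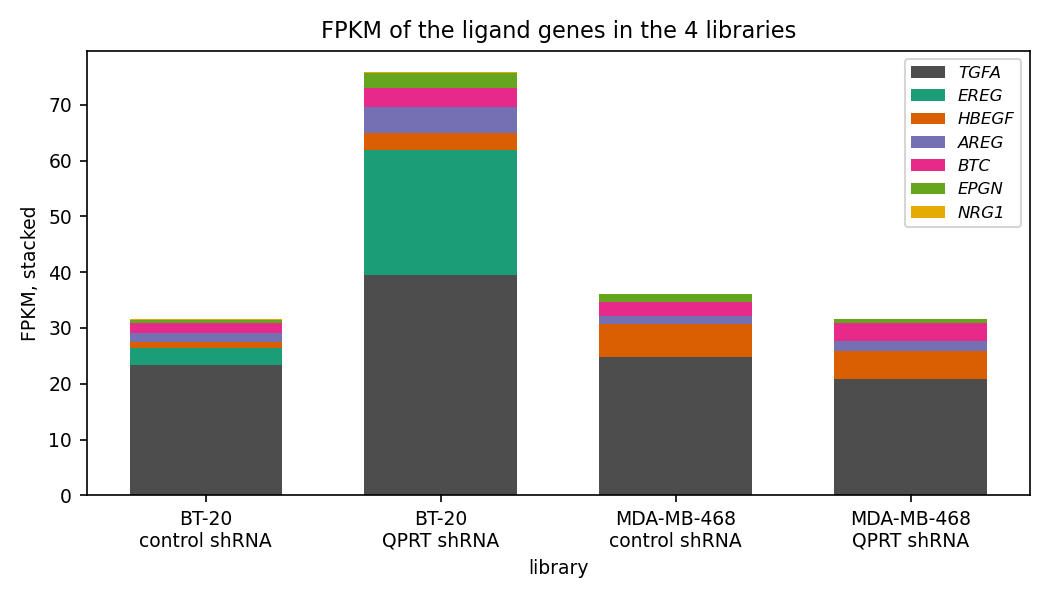
FPKM of the 7 ligand genes among the members, without EGF, stacked for each library. The bar of BT-20 with QPRT shRNA reaches 75.9 FPKM, of which TGFA and EREG hold 52.1% and 29.3%, and the other 3 bars reach 31.6 to 36.2 FPKM.

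TGFA made up 74.0% and 52.1% of the ligand FPKM in BT-20, while MDA-MB-468 gave 68.5% and 65.8%. The next largest ligand differed between the lines: EREG held 9.35% and 29.3% in BT-20 but 0.116% and 0% in MDA-MB-468, and HBEGF held 3.85% and 3.99% in BT-20 but 16.3% and 15.9% in MDA-MB-468. Counted as fragments, without division by length, EREG held 44.1% of the ligand fragments in BT-20 with QPRT shRNA (interval 41.3% to 47.0%) and TGFA 40.8% (interval 38% to 43.6%), so their order there depends on the length correction.

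Of the 7 ligand genes, 4 are neighbours on chromosome 4: EPGN, EREG, AREG and BTC lie within 486.2 kb, from 74308473 to 74794686. EPGN, EREG and AREG, which are transcribed on the plus strand, are the 3 members called in BT-20, and BTC is transcribed towards them on the minus strand. BTC also rose in BT-20, with a fragment ratio of 1.81 (interval 1.18 to 2.81), and missed only the 2-fold call. EREG and EPGN entered the test only through the BT-20 library with QPRT shRNA, and EPGN had 3 and 16 fragments in BT-20. MTHFD2L, a folate enzyme gene of the same region, was 5.17 and 8.15 FPKM in BT-20 and 8.37 and 9.62 FPKM in MDA-MB-468, below 2-fold in both lines. The chemokine gene CXCL8, also on that arm, was 1.03 and 2.75 FPKM (11 and 30 fragments) in BT-20 and 9.58 and 8.42 FPKM in MDA-MB-468. CXCL2 was 0.597 and 0.814 FPKM in BT-20 and 5.565 and 4.795 FPKM in MDA-MB-468, and CXCL1 and PARM1 had a mean under 1 FPKM. These 5 genes were picked after earlier results were known.

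For the 3 genes of this cluster called in BT-20, the 250 bases before the RefSeq start sites are shown (GRCh38.p14, plus strand). They lie at chr4:74308220-74308469 for EPGN, chr4:74364895-74365144 for EREG and chr4:74444886-74445135 for AREG. The 3 were picked by that call, which BTC missed, so their motifs beside the share of all windows are a description and not a test. Capitals mark the letters TATAAA, the TATA box, and TGACGTCA, the cyclic AMP response element. These and TGANTCA, the AP-1 site, were searched on both strands, and no capitals overlap.
EPGN: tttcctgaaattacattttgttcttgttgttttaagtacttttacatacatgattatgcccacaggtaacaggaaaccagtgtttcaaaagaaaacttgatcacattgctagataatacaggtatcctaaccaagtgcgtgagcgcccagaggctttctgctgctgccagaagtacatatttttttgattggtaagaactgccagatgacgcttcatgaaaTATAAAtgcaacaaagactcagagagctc
EREG: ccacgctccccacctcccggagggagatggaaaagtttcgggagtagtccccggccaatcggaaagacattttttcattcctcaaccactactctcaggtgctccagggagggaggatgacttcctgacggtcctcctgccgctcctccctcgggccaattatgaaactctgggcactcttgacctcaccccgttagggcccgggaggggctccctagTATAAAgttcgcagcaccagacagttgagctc
AREG: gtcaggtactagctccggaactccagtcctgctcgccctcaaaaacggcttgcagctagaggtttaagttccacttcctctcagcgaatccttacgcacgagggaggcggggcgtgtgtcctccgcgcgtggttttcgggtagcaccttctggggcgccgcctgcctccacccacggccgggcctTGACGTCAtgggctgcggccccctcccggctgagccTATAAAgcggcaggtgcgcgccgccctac
TATAAA was found in all 3, first base at position -29 in EPGN, -32 in EREG and -29 in AREG. It was in 10.7% of 35116 RefSeq promoter windows, each searched only over the 250 bases before its start. TGACGTCA was found in AREG at position -65 and in 1.65% of all windows. TGANTCA, found in 6.57% of all windows, was in none of the 3, and the BTC window held none of the 3 motifs. The table held 10 windows for 8 of the 10 members. Of these, 4 had TATAAA, the fourth being the more downstream of the 2 windows of EGFR, which was also the only window of the members with TGANTCA. A match is a description of the letters and not of a bound site.

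The rest of the pathway was read from 64 further genes, of which 59 were tested. None was called at 2-fold with QPRT shRNA in either line, where between 0.649% and 1.05% of all genes were called in each direction. In BT-20 43 of 59 were above 0 with a median of 0.19, beside 56.4% of all genes with a median of 0.05. In MDA-MB-468 28 of 59 were above 0 with a median of -0.01, beside 51.5% with a median of 0.01, and the counts by role that follow are read against the same shares. In limma no pathway gene passed the adjusted p of 0.05 for the shRNA effect, with 1 gene at an unadjusted p under 0.05 in both limma and limma-voom, which was FOSL1.

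By role, ERBB2, the preferred partner of EGFR, was 128.9 and 121.9 FPKM in BT-20 and 58.1 and 50.7 FPKM in MDA-MB-468, and ERBB4 was listed at 0. EGF itself was 0.358 and 0.582 FPKM in BT-20 (6 and 10 fragments) and 4.29 and 1.66 FPKM in MDA-MB-468 (74 and 27 fragments). All 6 tested genes of ligand release, ADAM9, ADAM10, ADAM15, ADAM17, RHBDF1 and RHBDF2, were higher with QPRT shRNA in BT-20 and lower in MDA-MB-468. In MDA-MB-468 the differences of RHBDF1 (39.4 and 38.7 FPKM) and RHBDF2 (29.4 and 28.8 FPKM) were slight, at -0.02 and -0.03 on the log2(FPKM + 1) scale. ADAM17, the main sheddase of TGFA, AREG and EREG, was 19.8 and 27.0 FPKM in BT-20 and 25.1 and 21.7 FPKM in MDA-MB-468, and none of the 6 passed 2-fold. Among the 11 feedback inhibitors, 9 were above 0 in BT-20, 6 were in MDA-MB-468, with the largest BT-20 differences for SPRY4 (5.45 and 11.4 FPKM) and DUSP6 (2.13 and 4.90 FPKM). Of the 10 transcriptional targets, 6 were above 0 in BT-20, 7 were in MDA-MB-468. FOSL1 was 8.46 and 16.8 FPKM in BT-20 and 7.14 and 9.43 FPKM in MDA-MB-468, whereas EGR1 (128.6 and 104.7 FPKM) and FOS (217.9 and 179.4 FPKM) were lower with QPRT shRNA in BT-20.

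Between the lines, 37 of the 59 pathway genes passed the limma adjusted p of 0.05, 15 of them higher in MDA-MB-468, beside 55.1% of all genes. In MDA-MB-468, 18.3% of all genes were at least 2-fold higher and 13.2% lower under control shRNA, and 17.4% and 13.9% under QPRT shRNA. Of the 59 pathway genes, 7 were at least 2-fold higher and 7 lower under control shRNA, and 4 and 12 under QPRT shRNA. In the same direction under both shRNAs, 9 were at least 2-fold different, for which the share of all genes is not given here. The largest 6 were SHC1, an adaptor of the receptor, at 348 and 381.8 FPKM in BT-20 and 54.6 and 41.0 FPKM in MDA-MB-468, then the feedback inhibitor SPRY1 (2.28 and 2.62 against 22.1 and 21.9 FPKM), IER3 (77.2 and 76.0 against 388.9 and 519.4 FPKM), ADAM9 (141.1 and 197 against 52.9 and 41.3 FPKM), the receptor-degrading inhibitor LRIG1 (15.8 and 14.7 against 49.9 and 53.9 FPKM) and the kinase gene MAP2K2 (432.5 and 315.5 against 134.7 and 140.1 FPKM).

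The members were also set beside traces of MDA-MB-468 in the BT-20 libraries. For 18 genes with at least 50 FPKM in both MDA-MB-468 libraries and under 0.5 FPKM in BT-20 with control shRNA, the median level was 0.08% of the MDA-MB-468 mean in that library, which the choice of genes keeps low, and 0.656% in BT-20 with QPRT shRNA. The latter share of the EGFR level in MDA-MB-468 is 5.81 FPKM, and EGFR was 82.8 FPKM higher in BT-20 with QPRT shRNA than with control shRNA. For EREG, whose MDA-MB-468 level was near 0, that share is 0.000138 FPKM beside a difference of 19.3 FPKM. For AREG it is 0.0113 beside 3.21 FPKM, for HBEGF 0.0358 beside 1.81 FPKM and for ERRFI1 0.63 beside 53.8 FPKM. In reverse, 13 genes were high in BT-20 and near 0 in MDA-MB-468 with control shRNA. Their medians in MDA-MB-468 were 0.111% and 0.101% of the BT-20 mean, control shRNA first. Whether such values come from carry-over between libraries or from expression in the line itself was not tested.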

How the data were processed

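The authors deposited 1 table of FPKM values for 4 libraries, 1 per cell line and shRNA (Illumina TruSeq libraries of total RNA, NovaSeq). The submitters' processing notes name CASAVA, FastQC, MultiQC, TopHat2 2.0.12 and HTSeq 0.6.1, and the genome build and annotation are not given in the sources used here. Symbols and transcript lengths were from GENCODE 29. Multiplied by length, 87.3% to 87.6% of all FPKM values above 0, and 97.6% to 97.8% of those of single-transcript genes, gave whole fragments within 0.02; for EGFR and ERBB3 the length was fitted to give whole fragments in all 4 libraries (2791 and 1642 bases).

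Differences of log2(FPKM + 1) were taken for 14321 genes with a mean of at least 1 FPKM, and called at 2-fold. Ratios of fragments have exact Clopper-Pearson intervals. limma 3.58.1 (R 4.3.3) was fitted with cell line and shRNA as terms and eBayes with a trend, adjusted by Benjamini-Hochberg over all genes. For the shRNA effect the 2 lines stand in for replicates, and for the line effect the 2 shRNA libraries of each line do. Neither are true replicates. The authors' DESeq2 needs counts and was not run. In simulated libraries where 200 of 14232 genes were changed 4-fold, limma recovered 99.5% of them for the shRNA effect, with 4.78% false calls. The changed genes were drawn from those with many fragments and changed alike in both lines. Changes in genes with few fragments, or that differ between the lines, were not simulated, so these shares do not cover them.

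The members, lists and tests were chosen with earlier results of these data known. Named were all members, QPRT, genes within 2 Mb of EGFR, the 5 genes most like EGFR, and pathway genes past 2-fold in both lines or among the 6 largest line differences with the same direction under both shRNAs; other pathway and marker genes named were chosen after their values were seen. Alternatives changed the pseudocount, scaling, filter, threshold, GC and length trend, block, eBayes trend and test (limma-voom).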

Additional observations from a re-analysis of the deposited data

Results flagged for a closer look

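Several members moved in opposite directions with QPRT shRNA in the 2 cell lines, higher in BT-20 and lower in MDA-MB-468. This contrast between the lines was not tested, since each line has 1 library per shRNA. As BT-20 minus MDA-MB-468 on the log2(FPKM + 1) scale it was 2.62 for EREG, where the MDA-MB-468 side rests on 1 and 0 fragments and turns to 0.08 above 0 once the GC and length trend is removed. EPGN gave 1.74, on 3 to 16 fragments a library, ERRFI1 1.09, HBEGF 1.06, TGFA 0.98 and ERBB3 0.44. For ERRFI1 the counting intervals of the fragment ratio lie on opposite sides of 1, and for TGFA too, the MDA-MB-468 interval ending at 0.996. For EPGN and HBEGF the MDA-MB-468 interval spans 1, and for ERBB3 the BT-20 interval does. The 3 other tested members were higher in both lines. Of all genes tested, 53.1% had a larger value in BT-20 than in MDA-MB-468, as had all 9 members tested. The share of all genes with opposite signs in the 2 lines is not given here, so these 6 members have no matching background. They were picked for their opposite signs, which favours a large difference, so they are not ranked against all genes. EREG and EPGN also entered the test only through the BT-20 library with QPRT shRNA, where they are high.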

How the results depend on the processing

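The limma model with both terms pairs the shRNAs within each cell line, and the fit with the tested term alone does not. Each group holds 1 library and the labels give no replicate numbers to pair by. Leaving out a library leaves the additive limma model no residual degree of freedom, so no library was left out. Of 178 recomputed member differences, 176 moved by less than 0.5 times the width of their counting interval or had none. The others were EGFR in BT-20 (0.48 with the GC and length trend removed) and EREG between the lines under control shRNA (-6.13 as fragments). In 3 that were near 0 the sign changed, and in none that was called.

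In BT-20 the 3 members called became 1 with a mean of at least 5 FPKM, where AREG and EPGN are not tested, and 6 at a threshold of 1.5-fold. The 1 member past the limma shRNA effect (EREG) became 0 with a pseudocount of 0.1, with no filter on low values, with the tested term alone, and with the GC and length trend removed, the last chosen after seeing the data; all genes past that test were then 94, 0, 0 and 2, against 90, and 45 with a mean of at least 5 FPKM. With the tested term alone 17 genes had an unadjusted p under 0.05. The 4 members past the line effect became 2 with no filter (EGFR and EREG). The cause was not tested.

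Over all genes, the 244 called in BT-20 became 792 with a pseudocount of 0.1, 370 with no filter, 103 with a mean of at least 5 FPKM and 1286 at 1.5-fold. In MDA-MB-468 the 271 became 756, 417, 96 and 1313. Between the lines 4519 and 4491 became 2984 and 2923 with a mean of at least 5 FPKM, and 7754 and 7592 at 1.5-fold. Members at 3 or fewer fragments are limited by depth.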
